A study of Mus musculus with 3 samples.

Results

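The 95 cells described here are the blood vessel endothelial and mural cells of dissociated mouse skin, 95 of 20728 cells kept over 3 single-cell libraries. A cell was kept with at least 200 detected genes and at most 20% mitochondrial counts. A member had no count of Ptprc, the pan-leukocyte antigen CD45, or of Cd3e, a T cell receptor subunit. The 87 endothelial members had counts of at least 3 of the 9 genes Pecam1, Cdh5, Kdr, Flt1, Emcn, Egfl7, Plvap, Tie1 and Cldn5. The 8 mural members had at least 2 counts of Rgs5 or counts of at least 3 of the 6 genes Acta2, Tagln, Myh11, Notch3, Des and Higd1b. No cell met both rules.

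Skin was taken from C57BL/6 mice, 9 weeks old according to the series' design text, and dissociated and barcoded with the Singleron GEXSCOPE kits. There were 3 groups with 1 library each: mice labelled normal that received saline (control), UV-irradiated mice that received saline (UV), and UV-irradiated mice that received VD, which the series title gives as vitamin D (UV plus vitamin D). UVB is the radiation named in that title. Doses, times and the number of animals behind each library are not given in the sources used here. The study asked how UVB changes the cells of the skin and how vitamin D alters that change, and with 1 library a group no difference between groups has a replicate check.

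Endothelial cells line vessels, hold them closed through VE-cadherin and claudin junctions, and respond to the VEGF and angiopoietin families. In inflamed skin the endothelium of postcapillary venules is where leukocytes leave the blood: selectins let them roll, and ICAM1 and VCAM1 let them stop. Mural cells wrap the endothelial tube, as pericytes on capillaries and as contractile smooth muscle around arterioles and venules.

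The control library held 9078 kept cells, the UV library 5451 and the UV plus vitamin D library 6199, with median totals of 6822.5, 7566 and 9301 counts per cell. The lowest total was 2822, 3010 and 3409 counts, so barcodes had been selected before deposit. Pairs of libraries shared 37 to 66 barcodes, none of which belonged to a member. UV endothelial cells had a median of 5033.5 counts (3015 to 18341), below the 7622 of the other UV cells. All intervals below are 95% intervals that cover counting error only, and cells of 1 library share their source.

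Endothelial cells made up a far larger share of the UV library than of either other library. There were 8 of them in control, 0.0881% of cells (exact binomial interval 0.0381 to 0.174%). The UV library held 78, or 1.43% (1.13 to 1.78%). The UV plus vitamin D library held 1, or 0.0161% (0.000408 to 0.0898%). The share in UV was 16.2-fold that in control (counting interval 7.85 to 33.6) and 88.7-fold that in UV plus vitamin D (12.3 to 637). Control against UV plus vitamin D gave a ratio of 5.46 with an interval of 0.683 to 43.7, which includes 1. The intervals of control and UV plus vitamin D overlap, and that of UV stands above both.

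**Figure D1:**
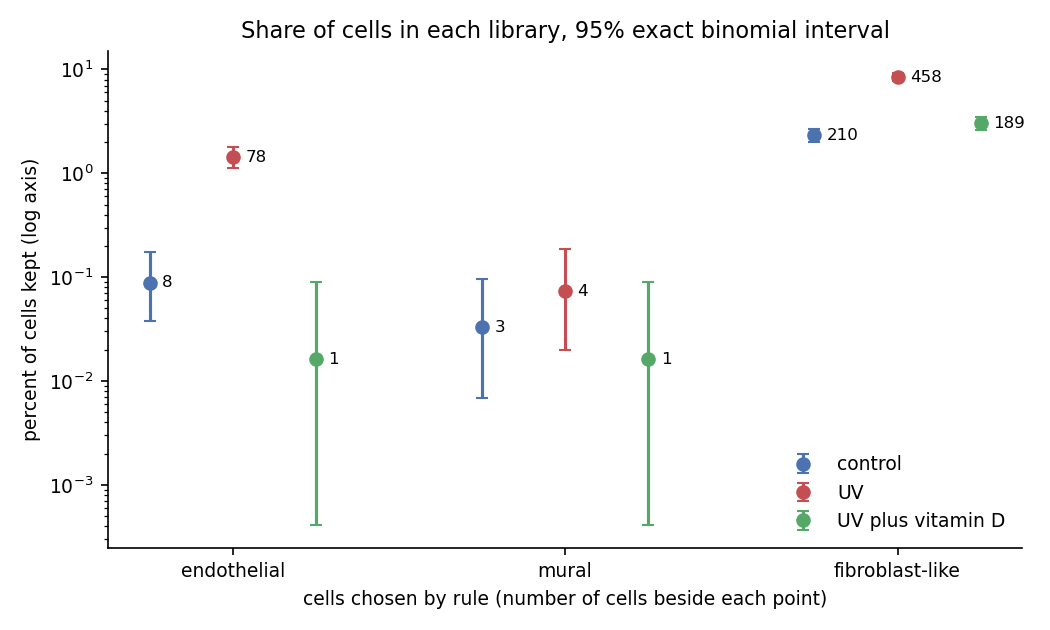
Percent of kept cells (log axis) that met the endothelial, mural or fibroblast-like rule in each library, with 95% exact binomial intervals and the number of cells beside each point. The UV point is the highest for endothelial and fibroblast-like cells, while the 3 mural intervals overlap.

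The size of the endothelial difference depended on what the cells were counted against. Fibroblast-like cells, which had at least 2 counts of at least 3 of 7 fibroblast genes, were also more frequent in UV (210, 458 and 189 cells; 2.31%, 8.40% and 3.05%). Per 100 fibroblast-like cells there were 3.81, 17.03 and 0.529 endothelial cells, which lowered the ratio of UV to control to 4.47 (2.2 to 9.08) and that of UV to UV plus vitamin D to 32.2 (4.51 to 230). Among cells with under 1% of their counts from 12 keratinocyte genes, 5 of 363, 69 of 1664 and 1 of 302 were endothelial. The ratios were then 3.01 (1.22 to 7.41) and 12.5 (1.75 to 89.8). The direction held with each denominator. In dissociated tissue, more vessel cells in the skin and more vessel cells released from it cannot be told apart.

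The cut of 3 genes fell in a gap. In control 90 cells had counts of 1 of the 9 endothelial genes, none had 2 or 3, and the 8 members had 4 to 8. In UV, 174 cells had 1 gene, 9 had 2, 1 had 3 and 77 had 4 or more. In UV plus vitamin D, 58 had 1 gene and the single member had 4. A further 6 UV cells met the endothelial rule but held 1 to 4 counts of Ptprc and were left out.

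Endothelial genes that played no part in the rule were high in the members as well. All 19 of 19 other endothelial genes listed, among them Ptprb (the VE-PTP phosphatase), Esam (a junction protein), Eng (a TGF-beta co-receptor) and Vwf (von Willebrand factor), were at least 2-fold higher in UV endothelial cells than in all other UV cells. Over all 14171 genes measured, 7.93% were at least 2-fold higher in that comparison and 8.32% lower. Folds between cell sets were taken as the log2 ratio of CPM plus 10, CPM being counts per 1000000 counts of the cell set. Ptprb was at 530 CPM (Poisson interval 467 to 599) against 0.559 CPM in other UV cells, with counts in 58 of 78 endothelial cells (74.4%) and 0.335% of the others. With every cell thinned to 2500 counts these shares were 57.7% and 0.112%. Vwf was at 542 CPM against 0.898, and Mmrn2, an endothelial matrix protein, at 306 against 0.359. These are descriptions, since the cells were chosen on genes that are known to move with these.

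Most markers of other cells were low. Over the 78 UV endothelial cells the 12 keratinocyte genes took a median of 0.213% of counts against 3.47% in other UV cells, and 9 cells were at 1% or more, up to 7.73%. Against fibroblast-like cells 3 of the 12 were at least 2-fold higher, Krt5, Krt14 and Krt15, with Krt14 at 498 CPM in 21 cells and 69.3% of its counts in 1 cell. The 10 fibroblast genes were at 0 in 41 of 78 cells and at most 2.40%, and the 10 myeloid genes at most 0.243%. Of the mural genes, Rgs5 and Myh11 had no count. Acta2, the smooth muscle actin, had 16 counts in 8 cells and Tagln 12 in 10. Both were at least 2-fold higher than in all other UV cells (33.5 against 7.28 and 25.1 against 0.898 CPM). Against fibroblast-like cells (75.2 and 7.90 CPM) Acta2 was lower. Tagln was higher there but just short of the criterion, at a log2 ratio of 0.973 with the 10 CPM added. Acta1, of skeletal muscle, had 48 counts, of which 95.8% came from 1 cell. Of the 8 control cells, 3 were at 1.12%, 3.75% and 4.31% keratinocyte counts. Whether these counts came from free RNA or from joined cells was not tested, and no doublet caller was run.

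The label "blood vessel" held for most UV cells and not for all. Lymphatic vessels share the genes of the rule, and 17 of the 78 UV cells had counts of at least 2 of 8 lymphatic genes, with 7 of the 8 detected in 6 cells. In these 17 cells Mmrn1 (multimerin 1) had 234 counts in 16 cells, Lyve1, the lymphatic hyaluronan receptor, 173 in 7, Ccl21a, a chemokine that guides dendritic cells into lymphatics, 93 in 8, and Prox1, the transcription factor of lymphatic identity, 23 in 10. All 234 Mmrn1, 93 Ccl21a, 22 Reln and 17 Flt4 counts of the UV endothelial cells lay in them. No control or UV plus vitamin D endothelial cell had 2 lymphatic genes. Without these cells UV held 61 endothelial cells and the log2 ratio of shares to control fell from 4.02 to 3.67.

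The other UV cells fell into 2 main sets by markers that did not occur together. Ackr1, the atypical chemokine receptor found on venules, was detected in 32 cells, and Gja4, a connexin of arterial endothelium, in 24. No cell held both. No Ackr1 cell was lymphatic-marked, 1 Gja4 cell was, and 6 cells had none of these marks. The sets below, made after their values were seen, are therefore 32 cells with Ackr1, 23 with Gja4 that were not lymphatic-marked, and the 17 lymphatic-marked cells, with median totals of 5493, 4116 and 4831 counts.

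**Figure D2:**
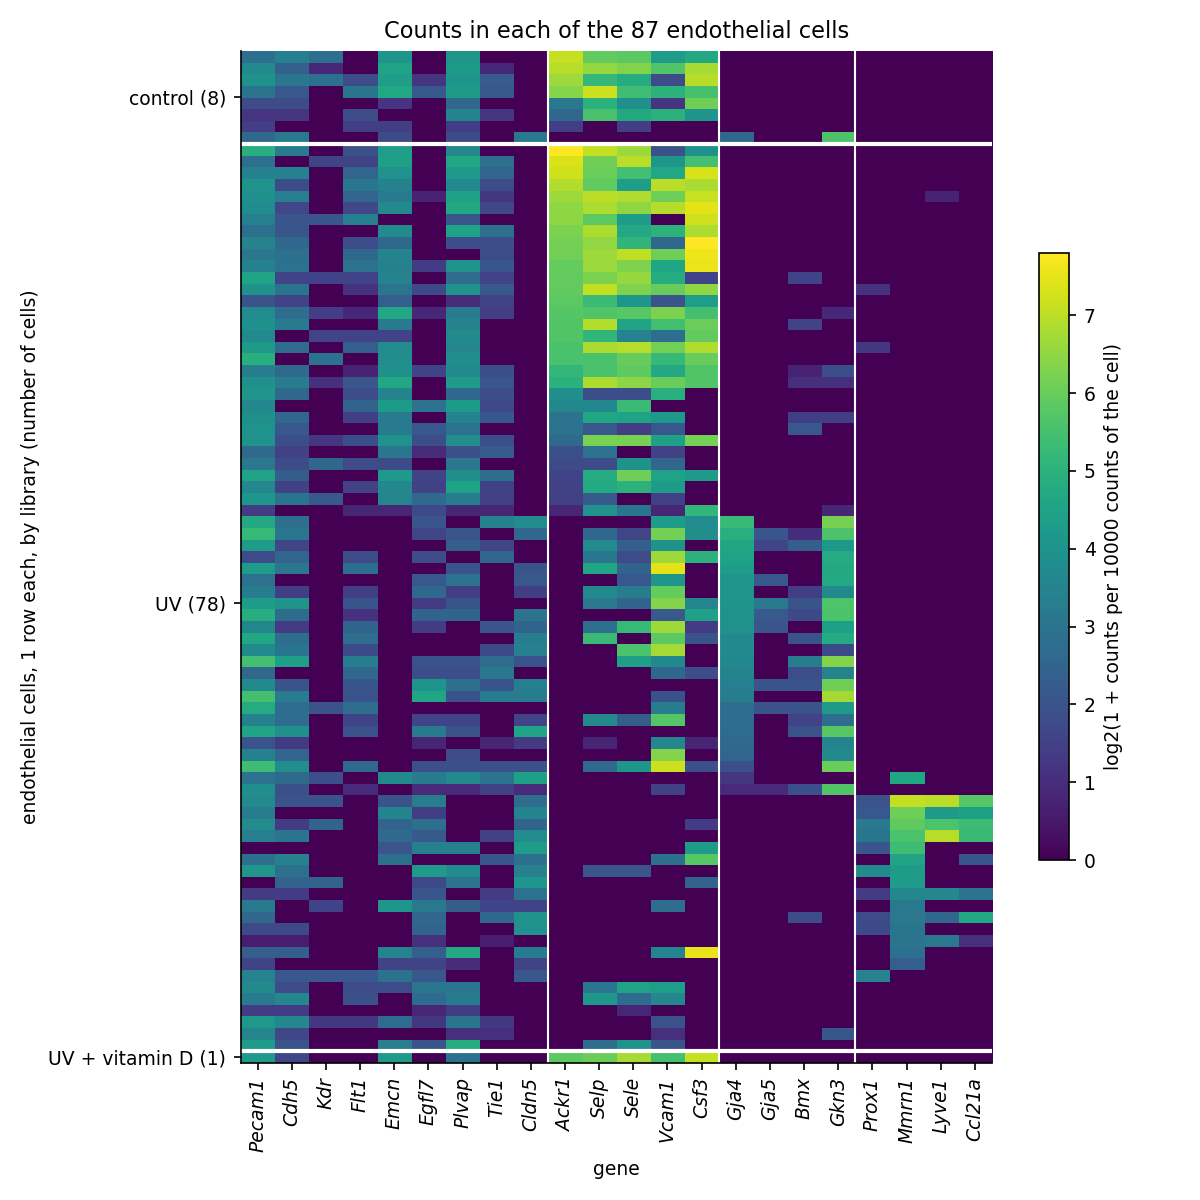
Each row is 1 of the 87 endothelial cells, grouped by library, and colour is log2 of 1 plus counts per 10000 counts of the cell. Ackr1 and Gja4 mark separate blocks of the 78 UV cells, a further block has Mmrn1, and 7 of the 8 control cells and the UV plus vitamin D cell have Ackr1.

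The cells with Ackr1 carried the selectins. Selp, the P-selectin that platelets and endothelium expose within minutes of activation from stores, was detected in all 32 of them and Sele, the E-selectin that endothelium makes after cytokine exposure, in 30. They held 1377 of the 1456 Selp counts of UV endothelial cells (94.6%) and 1183 of 1276 Sele counts (92.7%). They also held 81.7% of Lrg1, 92.6% of Aqp1 (the aquaporin 1 water channel), 85.9% of Fabp4 (a fatty acid binding protein), 83.8% of Procr (the endothelial protein C receptor) and 81.1% of Vwf counts. Claudin 5, of tight junctions, had no count in these 32 cells, while Emcn (endomucin) was in 31 and Plvap, the protein of fenestral diaphragms, in 31.

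The cells with Gja4 had another profile. Emcn had no count in any of the 23, and Cldn5 was in 17, at 395 CPM. Cldn5 was higher still in the lymphatic-marked cells, at 767 CPM in 16 of 17 cells. Mgp (matrix Gla protein, an inhibitor of calcification) stood at 17581 CPM from 2182 counts in all 23 cells, against 1999 CPM in the Ackr1 cells. Fbln5 (fibulin 5) and Eln (elastin), both of elastic fibres, were at 1789 and 443 CPM against 492 and 130. Of the arterial genes, Gja5 had 18 counts and Sema3g 22, and neither had a count in an Ackr1 cell. Gkn3 had 432 of its 443 counts in these cells. Selp and Sele had 67 and 75 counts there, in 11 and 12 cells.

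Vcam1, which binds the integrin VLA-4 of leukocytes, did not follow the selectins. It was at 3549 CPM (765 counts, 30 of 32 cells) with Ackr1 and at 4850.4 CPM (602 counts, 21 of 23 cells) with Gja4, and at 102 CPM (10 counts, 3 of 17 cells) in lymphatic-marked cells. Il6 was likewise at 4597 and 3593 CPM in the Ackr1 and Gja4 cells, and had 1 count in the lymphatic-marked cells. Csf3, the growth factor G-CSF that drives neutrophil production, lay at 6885, 483 and 1177 CPM in the 3 sets, with 89.5% of its counts in the Ackr1 cells. Of the 115 Csf3 counts in lymphatic-marked cells, all came from 5 cells. Nts (neurotensin) was at 3970.3 CPM in 13 lymphatic-marked cells and had 107 counts in 5 Ackr1 cells and none in Gja4 cells.

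**Figure D3:**
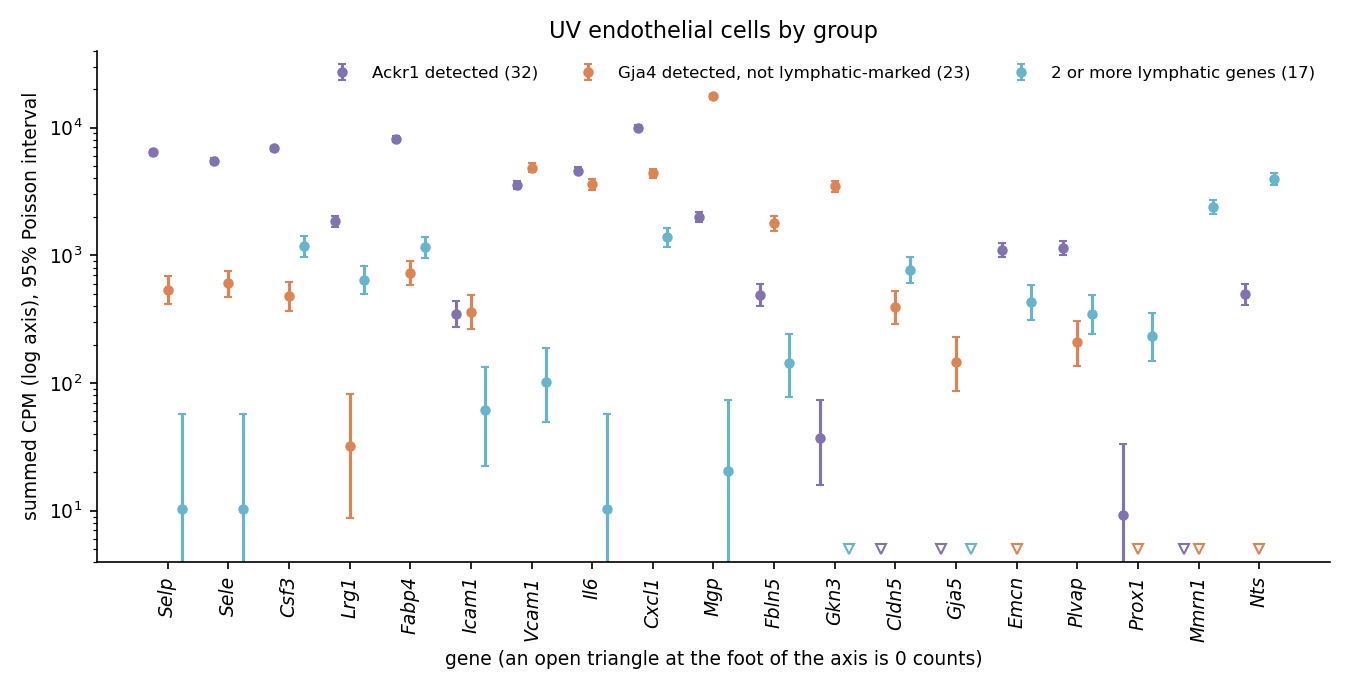
Summed CPM (log axis) of 19 genes in 3 sets of UV endothelial cells, with 95% Poisson intervals. An open triangle marks 0 counts. Selp, Sele, Csf3, Lrg1, Emcn and Plvap are highest with Ackr1, Mgp, Fbln5 and Gkn3 with Gja4, and Mmrn1, Prox1 and Nts in lymphatic-marked cells, while Vcam1 and Il6 are high in both blood sets.

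Few endothelial cells held most of the skin's counts of several inflammatory genes, in each library. The 78 UV cells, 0.943% of that library's counts, had 1659 of its Csf3 counts, 87.3% of them (exact binomial interval 85.7 to 88.7%). The 8 control cells had 314 Csf3 counts, 88.7% (84.9 to 91.8%). The single UV plus vitamin D cell had 64, 58.2%. For Sele the percentages were 95.7% in control, 90.2% in UV and 94.4% in UV plus vitamin D, and for Selp 94.9%, 89.2% and 68.2%. In control these values leaned on 1 cell: without the cell with the most counts of the gene, Csf3 stood at 82.3%, Sele at 91.3% and Selp at 91.5%.

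Genes that other skin cells also make were divided differently. Endothelial cells held 33.6%, 49.3% and 7.30% of Vcam1 counts in control, UV and UV plus vitamin D, and 2.30%, 28.6% and 1.28% of Icam1 counts. Il6 was at 4.17%, 17.3% and 1.503%, and Cxcl1, a neutrophil chemokine, at 1.26%, 7.40% and 0.0181%. Ccl2, a monocyte chemokine, had 0.792% of its UV counts in endothelial cells, and 69.1% of those were in 1 cell.

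**Figure D4:**
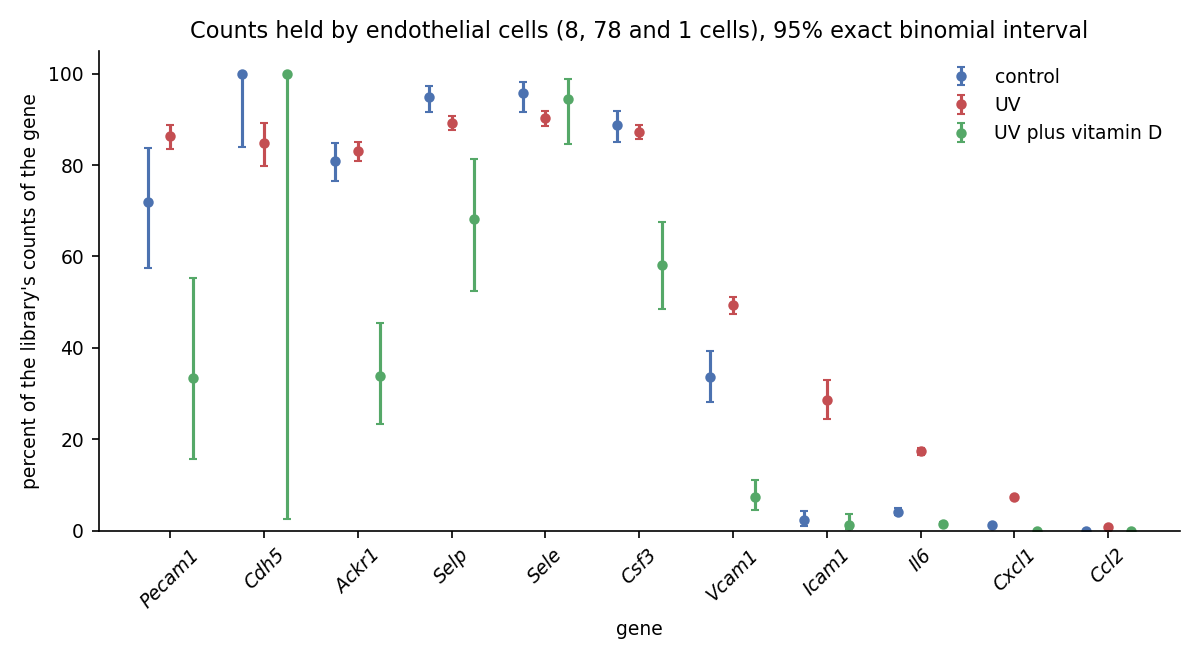
Percent of each library's counts of 11 genes that lay in its endothelial cells (8, 78 and 1 cells), with 95% exact binomial intervals. Sele stays above 90% in the 3 libraries and Csf3 above 58%, whereas Icam1, Il6, Cxcl1 and Ccl2 stay under 30%.

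Against UV fibroblast-like cells, the other main stromal cells of the dermis, leukocyte adhesion genes were high and most chemokines low in UV endothelial cells. In this comparison 7.68% of 8824 measured genes were at least 2-fold higher in endothelial cells and 10.5% lower, and the median log2 ratio was -0.05. Scaling by the median ratio of the 1145 genes with at least 50 counts in both sets shifts every log2 ratio by -0.25 and gives 502 genes higher and 1096 lower, in place of 678 and 925. With that scaling the adhesion and chemokine counts below stayed the same, and genes that fell under 2-fold are marked where they are named. It also put Smad7, Klf4, Timp1, Irf7, Gclm, Igfbp3, Acta2 and Lor at least 2-fold lower, which the counts above and below leave out unless stated. Krt5, named above as at least 2-fold higher, fell under 2-fold. Counts of list members below leave out the genes that chose the endothelial or the fibroblast-like cells. Those against fibroblast-like cells are to be read beside the 7.68% and 10.5% of all measured genes. Of 12 measured adhesion genes, Pecam1 being left out, 9 were higher and 2, Jam3 and Cd34, lower, with a median log2 ratio of 3.11. Sele was at 2673 CPM against 4.39, Selp at 3050 against 1.46, Vcam1 at 2918 against 314 and Icam1 at 268 against 43.9. Counts of Selp were in 60.3% of the endothelial cells, 1.09% of the fibroblast-like cells and 1.66% of all other UV cells, or 56.4%, 0.437% and 0.577% after thinning to 2500 counts.

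Of 17 chemokines and cytokines, 3 passed the 2-fold criterion upward and 11 downward against fibroblast-like cells, with a median log2 ratio of -1.49. Those higher were Csf3 (3475 CPM against 4.68), Cx3cl1, the membrane-bound fractalkine (136 against 0.878), and Cxcl16 (302 against 70.2). Ccl2 was at 1227 CPM against 16432, Ccl7 at 593 against 10655 and Cxcl2 at 938 against 2657. Cxcl1 (5946 against 8991 CPM) and Il6 (3058 against 1776 CPM) were within 2-fold. Against all other UV cells, which are mainly keratinocytes, Cxcl1 and Il6 were at least 2-fold higher, at log2 ratios of 3.06 and 4.37.

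Several of these genes are known targets of NF-kB, and the windows of 160 bases before their start are shown for the letters GGANNNTCC, a form of the kappaB motif that reads the same on both strands. Of 8 genes looked up in the RefSeq promoter table (GRCm38.p6), 6 were found and 4 held the motif, beside 4.92% of 32851 windows of the same length. Capitals mark the motif, and each sequence runs 5′ to 3′ on the gene's strand, which is the plus strand for all 4.
Sele, chr1:164048074-164048233: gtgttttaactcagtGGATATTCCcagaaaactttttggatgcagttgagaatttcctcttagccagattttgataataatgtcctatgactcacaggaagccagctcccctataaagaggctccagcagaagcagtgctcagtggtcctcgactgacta
Icam1, chr9:21015780-21015939: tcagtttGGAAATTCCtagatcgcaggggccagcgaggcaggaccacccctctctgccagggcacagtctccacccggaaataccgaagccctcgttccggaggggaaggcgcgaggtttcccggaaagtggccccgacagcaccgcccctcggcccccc
Il6, chr5:30012954-30013113: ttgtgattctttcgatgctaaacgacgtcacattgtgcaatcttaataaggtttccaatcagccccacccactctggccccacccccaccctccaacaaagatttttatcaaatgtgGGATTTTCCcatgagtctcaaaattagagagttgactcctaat
Cxcl1, chr5:90891085-90891244: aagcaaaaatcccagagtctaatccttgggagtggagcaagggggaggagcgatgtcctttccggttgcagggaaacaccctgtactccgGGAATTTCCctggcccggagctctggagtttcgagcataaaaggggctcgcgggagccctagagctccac
The match begins 145, 153, 43 and 70 bases before the start of Sele, Icam1, Il6 and Cxcl1. Selp and Ackr1 had no match in this window, and both windows and matches describe letters only. The genes were picked after their values were seen, so the share of 4 in 6 is no test. A length of 150 bases was among the settings but was not the one used, and the Icam1 match begins outside it.

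The NF-kB feedback list, which also holds the adhesion gene Icam1 counted above, did not stand apart by much in endothelial cells. Nfkbia, which encodes the inhibitor IkB-alpha, was in 74 of 78 UV endothelial cells at 4857 CPM, against 2210 in fibroblast-like and 1178 in other UV cells. Of 11 genes in the list, 3 were at least 2-fold higher than in fibroblast-like cells (Nfkbia, Tnip1 and Icam1) and none lower. With median-ratio scaling Nfkbia fell under 2-fold, which left Tnip1 and Icam1. Tnfaip3, which encodes A20, was at 310 CPM against 309.

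Junction and permeability genes were higher than in fibroblast-like cells also beyond the rule, to which Cdh5 (VE-cadherin), Cldn5, Pecam1 and Plvap belong. Of the other 12 measured, 7 were higher by the 2-fold criterion and 1, Jam3, was lower, at a median log2 ratio of 1.32. Ptprb was at 530 against 0.585 CPM, Aqp1 at 1083 against 12.9, Jam2 at 276 against 24.9 and Cav1, which forms caveolae, at 700 against 315 (under 2-fold with median-ratio scaling). Aqp1 was patchy: it was detected in 36 of 78 cells, and in none of the Gja4 or lymphatic-marked cells.

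Of the VEGF and angiopoietin receptors outside the rule, Tek and Nrp2 were high. Nrp1 was at least 2-fold higher than in all other UV cells but not than in fibroblast-like cells. Ligands of the list went both ways. Without Kdr, Flt1 and Tie1, which belong to the rule, 5 of 11 measured genes were at least 2-fold higher than in fibroblast-like cells (Vegfc, Nrp2, Tek, Ramp2 and Calcrl) and 2, Vegfa and Adm, lower. The lymphatic growth factor Vegfc had 14 counts in 10 cells, 29.3 against 8.19 CPM, and fell under 2-fold with median-ratio scaling. Of the receptors that took no part in the rule, Tek (the angiopoietin receptor TIE2) was at 157 CPM (124 to 197) against 36.0, Nrp2 at 90.1 against 22.2 and Calcrl, the adrenomedullin receptor, at 232 against 26.9, with its partner Ramp2 at 222 against 57.9. Vegfa had 8 counts, 16.8 CPM against 106. Angpt2, a TIE2 ligand made by endothelium, had 17 counts in 9 cells. Kdr, the main VEGF receptor and a gene of the rule, had only 26 counts in 18 of 78 cells, of which 10 lay in lymphatic-marked cells and 1 in Gja4 cells.

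Notch genes were near the detection limit. Only 3 of 12 had enough counts for the comparison with fibroblast-like cells, and Notch1 and Notch4 had 3 counts each, Hey1 7 and Dll4 5. Of 15 TGF-beta and BMP genes, 6 were at least 2-fold higher and 4 lower than in fibroblast-like cells, or 5 and 5 with median-ratio scaling. Eng was at 369 against 36.6 CPM, Acvrl1 (ALK1, a BMP9 receptor) at 81.7 against 20.8 and Bmp4 at 109 against 8.48. Of 7 genes of PDGF signalling and mural recruitment besides Pdgfra, which belongs to the fibroblast-like rule, 4 were higher (Pdgfa, S1pr1, Tek and Hbegf) and 1, Pdgfrb, lower. S1pr1, a sphingosine-1-phosphate receptor, was at 373 CPM in 63 of 78 cells against 1.46, and Pdgfb, which recruits pericytes, had 15 counts in 9 cells.

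Matrix genes separated by kind. Of 12 fibrillar and interstitial matrix genes besides the 4 of the fibroblast-like rule, 7 were at least 2-fold lower than in fibroblast-like cells, and the 2 that were higher were Mgp (5622 against 107 CPM) and Eln (209 against 93.6, under 2-fold with median-ratio scaling). Of 12 basement membrane genes, 2 were higher, Sparcl1 (367 against 31.6) and Col18a1 (157 against 61.4, also under 2-fold with that scaling), and 6 lower. Col4a1 was at 128 against 142. Against all other UV cells, 9 of 14 basement membrane genes were at least 2-fold higher.

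Genes of vascular tone and flow gave mixed counts. Of 10 tone genes, 6 were at least 2-fold higher than in fibroblast-like cells (3 with median-ratio scaling) and 3 lower. Edn1, the vasoconstrictor endothelin 1, was at 258 CPM (214 to 307) in 38 of 78 cells against 3.80, while Nos3, endothelial nitric oxide synthase, had 6 counts in 6 cells and Ptgs2 (COX-2) was at 147 against 1189. Of 6 flow response genes besides Kdr, which belongs to the rule, 3 were higher (Klf2, Egr1 and Cav1) and none lower. With median-ratio scaling Cav1 fell under 2-fold and Klf4 was at least 2-fold lower. Klf2, induced by laminar shear, was at 482 against 197 and Egr1 at 670 against 135. Of the clotting and fibrinolysis genes, Procr was at 1204 against 710 CPM, Thbd (thrombomodulin) at 161 against 201 and Plat (tissue plasminogen activator) at 325 against 529.

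Among lipid uptake genes, Fabp4 was at 4281 CPM in 50 of 78 cells against 3.22 in fibroblast-like cells. It is also an adipocyte gene, and the adipocyte markers Plin1 and Cfd had no count in UV endothelial cells. Of 8 genes measured in that list, 3 were higher (Cd36, Fabp4 and Scarb1) and 1, Lpl, lower.

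Stress and immune response lists differed less, beside 7.68% of all measured genes at least 2-fold higher than in fibroblast-like cells and 10.5% lower. Of 20 immediate early and heat shock genes, 5 were at least 2-fold higher than in fibroblast-like cells (Fos, Jun, Egr1, Atf3 and Ier3) and none lower; Jun was under 2-fold with median-ratio scaling. Fos was at 1757 against 493 CPM and Atf3 at 980 against 286. These genes also respond to tissue dissociation, and that part was not tested. Of 21 interferon response genes, 4 were higher, among them Ly6e (2375 against 772) and Gbp4 (124 against 2.05), and 5 lower, among them Ifit1, Ifit3 and Rsad2. Of 14 class I antigen presentation genes, 4 were higher, none with median-ratio scaling, and none lower, with H2-D1 at 3152 against 2065.

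Of 14 p53 targets, 4 were higher (Eda2r, Plk2, Btg2 and Fas; the middle pair not with median-ratio scaling) and 1, Ccng1, lower. Fas, the death receptor, was at 362 against 92.4 CPM. Cdkn1a, the cell cycle inhibitor p21, was at 1125 against 792 CPM and in 69 of 78 cells. Metallothioneins were low, with Mt1 at 1267 against 9022 and Mt2 at 396 against 1438. Of 13 oxidative stress genes, 2 were higher (Nqo1 and Gpx1) and 5 lower. Of 13 hypoxia and glycolysis genes, 3 were higher (Hif1a, which fell under 2-fold with median-ratio scaling, Epas1 and Pfkfb3) and 2, Vegfa and Hk2, lower. Over all measured genes 7.68% were higher and 10.5% lower, and whether these short lists depart from those shares was not tested. Epas1, which encodes HIF-2alpha, was at 285 against 4.97.

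None of 18 cell cycle genes was at least 2-fold higher and 7 were lower. Mki67, the Ki-67 proliferation marker, had 3 counts in 2 of 78 UV endothelial cells and Top2a 3 counts in 1. One control cell had 2 Mki67, 9 Cenpf and 1 Top2a counts.

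The vitamin D receptor was rarely detected, and 4 of 8 measured genes of the receptor and target list, Lgmn, Spp1, Cd14 and Txnip, were at least 2-fold higher than in fibroblast-like cells and none lower. Their median log2 ratio was 0.79. Lgmn (legumain, a lysosomal protease) was at 310 CPM in 57 of 78 cells against 97.1, and Cd14 (a lipopolysaccharide co-receptor of myeloid cells) at 243 in 20 cells against 23.7. Spp1 (osteopontin) had 30 counts in 2 cells. With median-ratio scaling Txnip, at 165 against 73.1, fell under 2-fold and Igfbp3 was at least 2-fold lower. Against all other UV cells Lgmn, Spp1 and Txnip were higher and Vdr lower. Vdr, the vitamin D receptor, had 7 counts in 7 of 78 UV endothelial cells (8.97%, 14.7 CPM, Poisson interval 5.89 to 30.2), against 25.9% of other UV cells and 6.33% of fibroblast-like cells. After thinning to 2500 counts the shares were 5.13%, 8.74% and 2.62%. It had no count in the 8 control cells or the UV plus vitamin D cell. Cyp24a1, the vitamin D-degrading enzyme that the receptor induces, had no count in the UV endothelial cells and no row in the tables of the other two libraries. Rxra, its partner receptor, had 2 counts in UV and 1 in control. With 1 endothelial cell in the vitamin D library, an effect of vitamin D on endothelial genes was not detectable at this depth.

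Gene values of the 3 libraries are set side by side without folds, since the control and UV plus vitamin D libraries held fewer than 20 endothelial cells. Of the 8 control cells 7 had Ackr1 counts, from 1 to 145, the marker of the largest UV set. The eighth had no Ackr1 but 3 Cldn5 and 2 Gja4 counts. Selp was in 6 of the 8 (19 to 110 counts), Sele in 7 (1 to 92) and Csf3 in 6 (8 to 128). These genes were thus detected in unirradiated skin also.

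In summed CPM, control, UV and UV plus vitamin D endothelial cells were at 5950, 2245 and 5596 for Ackr1 and at 5072, 3050 and 6457 for Selp. Sele was at 3433, 2673 and 10977 and Csf3 at 6126, 3475 and 13775. Neither was higher in UV, where Ackr1 cells were 32 of 78. Within the 32 UV Ackr1 cells Selp stood at 6388, Sele at 5488 and Csf3 at 6885 CPM.

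Other genes had higher values in the UV cells than in control. Mgp was at 5622 CPM in UV and 1346 in control, Fbln5 at 729 and 58.5 (3 counts), Egr1 at 670 and 78.03 (4 counts), Cav1 at 700 and 215, Fas at 362 and 19.5 (1 count) and Edn1 at 258 and 39.0 (2 counts). Mgp and Fbln5 were also the genes that were high with Gja4, the marker that 1 of 8 control cells carried. Higher in control were Cd36 (761 against 130 CPM) and Hmox1 (995 against 77.5), and for both most control counts came from 1 cell, with 35 of 39 and 44 of 51. The UV plus vitamin D cell, with 4646 counts, had 26 Ackr1, 30 Selp, 51 Sele, 20 Vcam1, 64 Csf3 and 83 Il6 counts and none of Gja4.

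Mural cells were few in every library, and the ratios of their shares of all cells had intervals that include 1. There were 3 in control (0.0330%, 0.00682 to 0.0965%), 4 in UV (0.0734%, 0.0200 to 0.188%) and 1 in UV plus vitamin D (0.0161%, 0.000408 to 0.0898%). UV over control was 2.22 (0.497 to 9.92), UV over UV plus vitamin D 4.55 (0.509 to 40.7) and control over UV plus vitamin D 2.05 (0.213 to 19.7). Per fibroblast-like cell the direction of UV over control turned, to 0.611 (0.138 to 2.71). Among cells with under 1% keratinocyte counts it was 0.145 with an interval below 1 (0.0244 to 0.867), from 3 of 363 control and 2 of 1664 UV cells.

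The 3 control mural cells had the genes of contractile smooth muscle. They held 27, 44 and 34 counts of Acta2, 2, 7 and 11 of Tagln (transgelin), 4, 1 and 15 of Myh11 (smooth muscle myosin) and 11, 20 and 32 of Myl9 (myosin light chain). Rgs5 and Pdgfrb, which mark pericytes, and Notch3 had no count in them. Their summed keratinocyte counts were 0.283% to 0.618%. Arrector pili muscle, which erects hairs, uses the same contractile genes. Of its listed markers, only Actg2, Des and Itga8 were read cell by cell. The first cell had 2 Actg2 and 1 Des counts, the second 3 Itga8 and the third 2 Des. Vessel muscle and hair muscle were thus not separated.

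The 4 UV mural cells did not form 1 type. The first had 8 Acta2, 4 Notch3, 6 Des (desmin), 2 Cspg4 (NG2), 3 Lmod1 and 1 Rgs5 counts, a mixture of smooth muscle and pericyte genes. The second had 10 Acta2, 10 Myl9, 4 Actg2 and 3 Cspg4 counts. Beside these it had 30 Col1a1, 17 Col1a2 and 2 Pdgfra counts, which are fibroblast genes. The third met the rule with 1 count each of Acta2, Tagln and Notch3, and 1.28% of its counts were keratinocyte genes. The fourth had 3 Rgs5, 5 Acta2, 2 Rgs4 and 1 Pdgfrb counts together with 43 Krt5 and 71 Krt14 counts of basal keratinocytes. The UV plus vitamin D cell had 2 Rgs5 counts, no other gene of the mural rule, and 17 Krt14 counts. The mural label thus rested on contractile genes in the 3 control cells, and the cells with pericyte genes also had smooth muscle or keratinocyte genes.

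Just outside the rule were cells with 2 of the 6 mural genes, 8 in control, 25 in UV and 6 in UV plus vitamin D, and cells with 1 Rgs5 count, 2, 1 and 3. The genes themselves are not confined to mural cells: Notch3 had 1262, 515 and 1074 counts in the 3 whole libraries. Rgs5, among the most used pericyte markers, had 2, 4 and 5 counts over whole libraries of 9078, 5451 and 6199 cells.

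Sums over all kept cells gave a view that the membership rule did not shape, on endothelial genes outside it. In such sums fewer cells of a type and less RNA per cell cannot be told apart. Of the 19 other endothelial genes, 18 were at least 2-fold higher over the UV library than over control, and 18 than over UV plus vitamin D, while Tspan7 was not. Over all genes 26.2% of 15461 were at least 2-fold higher in UV against control and 26.9% of 15345 against UV plus vitamin D, and 1.82% and 1.32% lower. The list's median log2 ratios were 4.04 and 4.29, beside 0.18 and 0.21 for all genes. Ptprb had 12, 281 and 5 counts in control, UV and UV plus vitamin D (0.151, 5.55 and 0.0723 CPM), Esam 20, 213 and 5, Mmrn2 4, 164 and 2, and Vwf 40, 304 and 29. Control and UV plus vitamin D differed in either direction: Esam was at 0.252 and 0.0723 CPM, with overlapping intervals, and Tek at 0.743 and 1.22, with intervals that do not overlap (0.565 to 0.958 and 0.969 to 1.504), beside 4.19 in UV. Most Tek counts lay outside the endothelial members, which held 5.08% in control, 35.4% in UV and 1.19% in UV plus vitamin D. In UV the members held 4.55% of Cd34 counts, but 86.4% of Esam and 85.2% of Vwf counts. The part of other cells in this list was not tested.

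**Figure D5:**
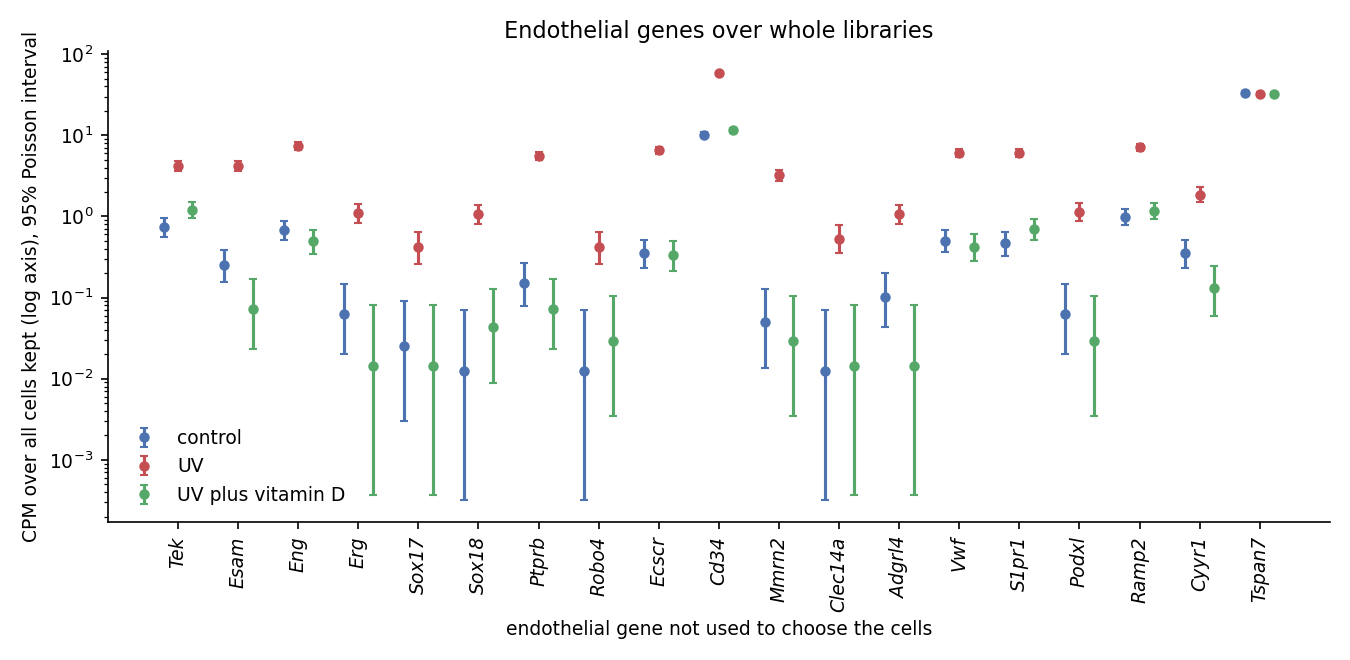
CPM over all kept cells (log axis) of 19 endothelial genes that were not used to choose the cells, with 95% Poisson intervals, by library. UV is highest for 18 genes, and the 3 libraries are alike for Tspan7.

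Vessel subtype lists moved the same way over whole libraries. Against control, 7 of 10 measured arterial, 5 of 6 capillary, 7 of 9 venous and 7 of 7 lymphatic genes were higher in UV by 2-fold or more, and none was lower. Against UV plus vitamin D the counts were 8 of 10, 4 of 6, 7 of 9 and 7 of 7. Over all genes 26.2% were at least 2-fold higher in UV against control and 26.9% against UV plus vitamin D. Mmrn1 had 248 counts in UV, 6 in UV plus vitamin D and no row in the control table, and Cldn5 had 3 in control, 137 in UV and no row in the third. Cdh5 had 21, 245 and 1 counts. Some listed genes are also made by other cells. Of 566 Lyve1 counts in the UV library 173 lay in lymphatic-marked cells. Of 2799 Cd36 counts 49 lay in Ackr1 cells and 13 in endothelial cells with none of the marks. Against all other UV cells, 7 of 10 arterial, 3 of 6 capillary, 9 of 9 venous and 6 of 7 lymphatic genes were at least 2-fold higher in UV endothelial cells, beside 7.93% of all genes. The part of other cells in these lists was not tested.

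Pericyte genes were higher in UV on this measure, while the share of mural members had overlapping intervals. Of 11 measured, 9 were at least 2-fold higher in UV than in control and 9 than in UV plus vitamin D. Over all genes these shares were 26.2% and 26.9%. The list's median log2 ratios were 3.46 and 3.07, and its summed CPM was 93.1 in control, 171 in UV and 150 in UV plus vitamin D. Pdgfrb had 17, 259 and 42 counts and Rgs4 8, 83 and 20. Pdgfrb is also made by fibroblasts: it was lower in UV endothelial than in UV fibroblast-like cells, and fibroblast-like cells were 3.63-fold more frequent in UV than in control (3.10 to 4.26). The part of fibroblasts in this list was not tested. Of 8 smooth muscle genes, 5 were higher than in control and 4 than in UV plus vitamin D, while Myh11 had 22, 8 and 4 counts. The summed CPM of those 8 genes differed little, at 463 in control, 498 in UV and 507 in UV plus vitamin D.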

How the data were processed

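RNA of single cells was sequenced from 3 libraries of whole skin. For each, the authors deposited a table of integer counts with genes in rows and barcodes in columns. FastQC, fastp, STAR and featureCounts are named, per the submitters' processing notes, with the human build GRCh38 although the symbols are those of mouse. Each table lists only genes with at least 1 count in that library, and a gene with no row was read as 0. The selection of barcodes and the unit counted, reads or molecules, are not given in the sources used here. Counts of reads would make the intervals too narrow.

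Members were found with Python 3.11.15, numpy 2.4.6 and scipy 1.17.1 on unthinned counts. Counts were summed over the cells of a set and scaled to CPM. Log2 ratios used a pseudocount of 10 CPM, which understates changes of low genes. A gene was measured with at least 20 counts over both sets, and a fold of 2 is a log2 ratio of 1. Library-wide ratios had no pseudocount, and a count of 0 was set to a floor of 3 counts. Shares have exact Clopper-Pearson intervals and CPM exact Poisson intervals. The procedure was checked on simulated counts. There is no test and no p-value, because each group is 1 library and cells are not replicates.

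The members and gene lists were chosen with earlier results of these data known. Genes named are those of the rule, Vdr, Cdkn1a and up to 4 members with the most counts of each list; all other genes, and the comparison with fibroblast-like cells, were chosen after their values were seen. Fold counts between libraries within a cell set were to be given only with at least 20 cells in each library, which no comparison met, so none is given. No doublet caller was run.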

Additional observations from a re-analysis of the deposited data

How the results depend on the processing

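Of 30 alternatives computed for the endothelial ratios, 23 moved the value and kept its direction, and 7 left it exactly as it was, among them 3 that could not differ because no cell met both rules. On the log2 scale UV against control was 4.02; it moved outside its counting interval to 1.59 as a share of cells with under 1% keratinocyte counts and to 2.16 per fibroblast-like cell. Other settings, among them 4 endothelial genes, 10% mitochondrial counts, thinning to 2500 counts and no condition on Ptprc and Cd3e (an addition made after the data were seen), stayed inside it. UV plus vitamin D against UV and against control stayed inside their intervals, but both rest on 1 cell. The mural ratio of UV to control, 1.15, moved to -2.78 among cells with under 1% keratinocyte counts. With stricter rules no mural cell was left in UV plus vitamin D, so those settings give no value. The number of genes at least 2-fold higher in UV endothelial than in fibroblast-like cells was 678 with a pseudocount of 10 CPM, 1076 with 1 and 290 with 50, and the number lower was 925, 1878 and 322. Scaling by the median ratio, also chosen after the data were seen, gave 502 and 1096. The planned counts of genes at least 2-fold apart between libraries, with their alternatives, were not run because every comparison has a library with under 20 cells. No paired analysis was possible because each group has 1 library, and for the same reason no replicate could be left out. With 1 endothelial and 1 mural cell in UV plus vitamin D, and 8 mural cells in all, depth in cells is the main limit.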
